A study of Mus musculus with 4 samples.

Results

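Transcript levels of 10 immediate early genes were followed over 4 microarrays of mouse intestinal lymphocytes. The genes were listed by name as Jun, Junb, Fos, Atf3, Egr1, Klf6, Btg2, Zfp36, Ier2 and Dusp1. All 10 were measured, each by 1 probe set that listed a single gene symbol, out of 22180 genes on the arrays. Each group was 1 whole-transcript Affymetrix array. The first group was colon intraepithelial lymphocytes (IEL, the lymphocytes lying between gut epithelial cells) of mice given ampicillin, neomycin, metronidazole and vancomycin in flavoured drinking water for 7 days and then recolonized with bacteria for 7 days, a step described both as co-housing and as transfer of used bedding. The others were colon IEL of unmanipulated mice, IEL of the small intestine of unmanipulated mice, and cells labelled T cells of the colon lamina propria. All mice were C57Bl/6 animals of 8 to 10 weeks, and 10 mice (5 male and 5 female) were pooled. Whether a pool stood behind each array, and whether arrays shared mice, is not settled by the labels. All 4 groups were enriched for T cells by magnetic removal of other cells, with an antibody against the epithelial surface protein EpCAM added to the removal mix. The IEL groups came from tissue shaken in buffer with EDTA, whereas the lamina propria group came from the remaining tissue after digestion with collagenase, so the tissue layer and the way cells were released cannot be told apart. With 1 array per group there is no test, no error and no replicate check for any difference below.

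Immediate early genes are those that a stimulus switches on within minutes, without new protein synthesis, and whose mRNAs are short-lived. Growth factors, antigen receptors and stress reach them through MAP kinases, which act on factors already bound at their promoters, among them serum response factor with its ELK partners and the cyclic AMP response element binding protein CREB. Their products are mostly transcription factors, such as the JUN and FOS proteins that pair to form AP-1, together with proteins that end the response. They are active in stimulated T cells and in gut epithelium, and they are also known to be induced while tissue is taken apart into cells.

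The contents of the arrays were first set against the labels. The level of a gene is the log2 value of its probe set, and the median level of all genes was 2.39 in recolonized colon IEL, 2.41 in colon IEL, 2.24 in small intestinal IEL and 2.18 in the lamina propria sample. T cell markers (8 of 10 measured) had median levels of 6.68, 5.57 and 5.75 on the recolonized colon, colon and small intestinal IEL arrays, against 2.51 on the lamina propria array. Pan-epithelial markers (12 of 12 measured) had median levels of 5.44, 4.40 and 6.69 on the same 3 IEL arrays, against 8.42 on the lamina propria array. In bulk RNA, fewer cells of a type and less RNA per cell cannot be told apart. The T cell receptor chain Cd3e stood at 3.72 on the lamina propria array and the epithelial protein Epcam at 9.20, so its content went against its label. It is called the labelled lamina propria array from here on. Median levels of the 10 genes and of the marker lists are compared by array in the plot of marker lists.

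**Figure D1:**
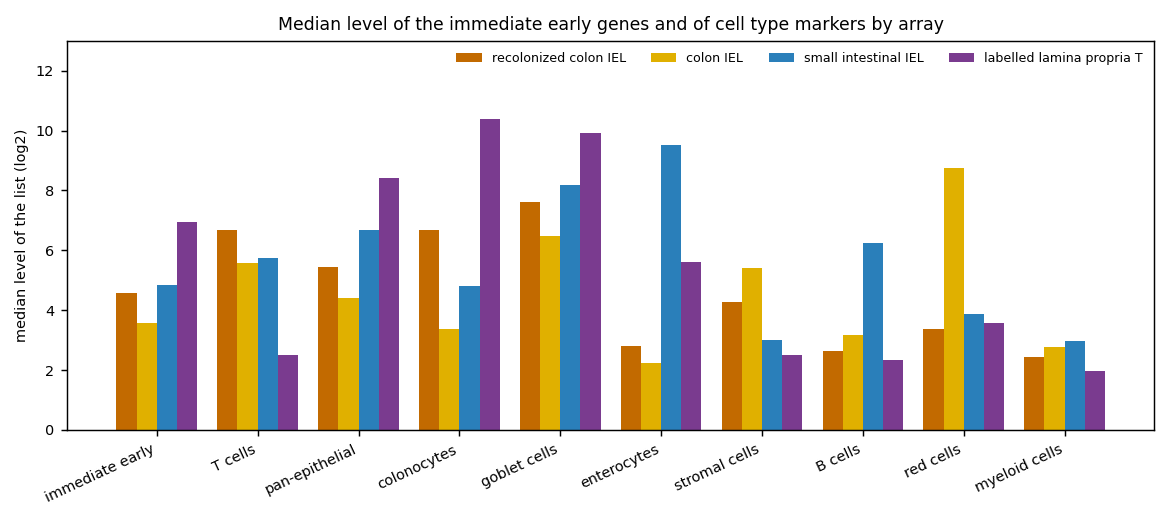
Median log2 level (vertical axis, from 0) of the immediate early genes and of 9 cell type marker lists on the 4 arrays, 1 bar per array. The immediate early genes have their highest median, 6.96, on the labelled lamina propria array, where pan-epithelial, colonocyte and goblet cell markers are also highest and T cell markers lowest.

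Among the AP-1 subunits, Jun (NCBI Gene 16476), the founding JUN protein, had levels of 4.05 in recolonized colon IEL, 3.04 in colon IEL and 5.18 in small intestinal IEL, against 8.97 on the labelled lamina propria array. No member spanned a wider range, at 5.92 on the log2 scale. Fos (Gene 14281), its classical partner, had levels of 3.22 in recolonized colon IEL, 3.24 in colon IEL and 4.50 in small intestinal IEL, against 7.70 on the labelled lamina propria array. Both genes thus had the same high array and the small intestine next to it, but the 2 colon IEL arrays were 1.01 apart for Jun and 0.02 apart for Fos.

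Junb (Gene 16477), a JUN protein that can temper JUN itself, was the flattest member over the arrays, with a range of 1.60. Its levels were 4.94 in recolonized colon IEL, 4.36 in colon IEL and 5.21 in small intestinal IEL, against 5.96 on the labelled lamina propria array. Atf3 (Gene 11910), a stress-induced factor of the same leucine zipper class, had levels of 4.41, 3.57 and 4.13 on the recolonized colon, colon and small intestinal IEL arrays, against 6.63 on the labelled lamina propria array. The 3 IEL arrays lay within 0.84 of each other for Atf3, and the labelled lamina propria array stood clear of them.

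The zinc finger factors differed in how the IEL arrays were ordered. Egr1 (Gene 13653), a target of serum response factor that binds GC-rich promoters, had levels of 4.29 in recolonized colon IEL, 3.82 in colon IEL and 3.75 in small intestinal IEL, against 6.59 on the labelled lamina propria array. The unmanipulated colon and small intestinal arrays were 0.07 apart. Klf6 (Gene 23849), a Krüppel-like factor induced by injury and cytokines, had levels of 5.62 in recolonized colon IEL, 3.96 in colon IEL and 5.84 in small intestinal IEL, against 7.37 on the labelled lamina propria array. Here the recolonized array lay beside the small intestinal one, 0.22 below it, and the unmanipulated colon array lay apart below both.

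The same order held for Btg2 (Gene 12227), an antiproliferative protein that recruits the CCR4-NOT deadenylase to mRNAs. Its levels were 5.67 in recolonized colon IEL, 3.57 in colon IEL and 5.79 in small intestinal IEL, against 7.20 on the labelled lamina propria array. Zfp36 (Gene 22695) encodes tristetraprolin, which binds AU-rich elements and hastens the decay of cytokine mRNAs. Its levels were 5.39 in recolonized colon IEL, 3.50 in colon IEL and 7.02 in small intestinal IEL, against 7.79 on the labelled lamina propria array. For Zfp36 the small intestinal array came within 0.76 of the highest array, while the unmanipulated colon array was the lowest.

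Dusp1 (Gene 19252), a phosphatase that switches off p38 and JNK MAP kinases, ran against that order. Its levels were 4.73 in recolonized colon IEL, 4.90 in colon IEL and 3.71 in small intestinal IEL, against 6.71 on the labelled lamina propria array. The small intestine was its lowest array, and both colon IEL arrays lay more than 1 log2 unit above it. Ier2 (Gene 15936), a small nuclear protein of the early response, had levels of 3.46 in recolonized colon IEL, 3.19 in colon IEL and 3.20 in small intestinal IEL, against 5.23 on the labelled lamina propria array, and the 3 IEL arrays lay within 0.28.

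**Figure D2:**
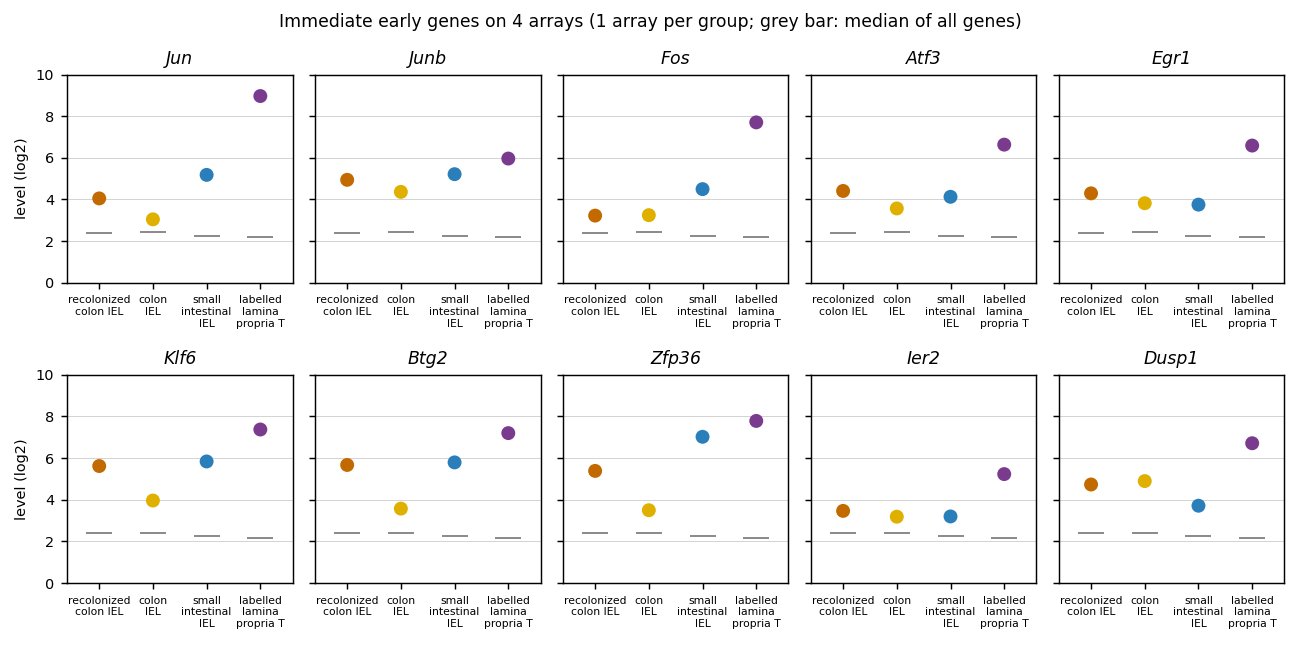
Log2 level (vertical axis) of each immediate early gene on the 4 arrays, 1 point per array, with a grey bar at the median of all genes on that array. In all 10 panels the point of the labelled lamina propria array is the highest, and all points lie above the grey bars.

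All 10 genes had their highest level on the labelled lamina propria array, where 43.3% of the 13823 genes at or above the median on at least 1 array did. The lowest level was on the unmanipulated colon IEL array for 7 members, where 36.3% of those genes had theirs, on the small intestinal array for Egr1 and Dusp1, and on the recolonized array for Fos. In 5 of 10 members (Jun, Junb, Btg2, Zfp36 and Klf6) the levels had the complete order of labelled lamina propria, small intestinal, recolonized colon and unmanipulated colon, an order that 20.1% of those 13823 genes shared. Of 9 measured housekeeping reference genes, 6 were highest on the labelled lamina propria array and 7 lowest on the unmanipulated colon IEL array. The complete order held in 4 of these 9. Members and lists were chosen with earlier results of these data known, so these counts cannot be told apart from that choice. As a yardstick without replicates, the SD of the log2 difference over 64 ribosomal protein genes was taken for the same pair of arrays, which was 0.34 to 0.59. Of the 30 gaps between neighbouring arrays in the members' orders, 11 were smaller than that SD, and none of these 11 involved the labelled lamina propria array.

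Unmanipulated colon IEL were compared with the labelled lamina propria array, a comparison meant to separate lymphocytes within the epithelium from those under it. Every member had a lower level in colon IEL by 2-fold or more, which is a count of 10 of 10, where 34.7% of the 12788 genes tested were, and 0 of 10 were higher, where 10.5% were. A gene entered this count when it reached the 50th percentile of levels on whichever of both arrays showed it brighter. With this floor raised to the 75th percentile, 10 of 10 members were still lower, but so were 54.9% of 7025 genes. The members' median difference was −3.24, against −0.44 over all genes tested. Jun was 60.7-fold lower, the 26th most negative difference of all genes tested, Fos 22.0-fold lower (172nd) and Zfp36 19.6-fold lower (200th). Btg2, Klf6 and Atf3 were 12.3-fold, 10.6-fold and 8.37-fold lower. Egr1, Ier2, Dusp1 and Junb followed at 6.82-fold, 4.13-fold, 3.52-fold and 3.03-fold lower. The Junb difference was unexceptional among the genes tested, since 21.5% of them had a difference as low or lower.

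The sizes depended on the scaling. Levels were spread less widely on the colon IEL array (SD 1.23) than on the labelled lamina propria array (SD 1.81). After quantile normalization, which brought the median of all genes tested to −0.03, the members' median was −2.19. Then 8 of 10 members were at least 2-fold lower, where 20.7% of all genes tested were. After a lowess correction of the difference for level the members' median was −1.81 with 7 of 10 lower, where 18.4% of all genes tested were. All 10 differences stayed below 0 under both and under centring. Those of Junb and Dusp1 shrank most in proportion, to −0.31 and −0.45 after quantile normalization and to −0.20 and −0.34 after lowess, while that of Jun was −5.54 and −4.44.

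Small intestinal IEL were also lower than the labelled lamina propria array in 8 of 10 members by at least 2-fold, where 15.7% of 12164 genes tested were. The median difference of the members was −2.27, against −0.17 over all genes tested, and it was −1.80 after quantile normalization and −1.97 after lowess. Jun (13.8-fold lower), Fos (9.23-fold), Dusp1 (8.01-fold), Egr1 (7.15-fold), Atf3 (5.68-fold) and Ier2 (4.10-fold) had the larger differences. Klf6 and Btg2 were 2.90-fold and 2.65-fold lower. Zfp36 and Junb were less than 2-fold apart, with differences of −0.76 and −0.75. The same 8 members were at least 2-fold lower under all 3 scalings. Of all genes tested 10.5% were lower after quantile normalization, 12.4% after centring and 11.7% after lowess. As deposited 0 of 10 members were higher, where 8.76% of the genes tested were. In recolonized colon IEL, set against the same array, 10 of 10 members were at least 2-fold lower, as were 30.3% of 12589 genes tested, and 0 were higher, where 9.41% were. Their differences ran from −4.92 for Jun and −4.48 for Fos to −1.02 for Junb, with a median of −2.10. The count fell to 6 of 10 with a median of −1.12 after quantile normalization and to 5 of 10 with −1.02 after lowess, where 17.8% and 17.0% of all genes tested were lower, and Junb turned to 0.00 and 0.05. These 3 comparisons share the labelled lamina propria array and are no independent repeats of each other.

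Summed over their list, pan-epithelial markers had the same array order as the immediate early genes. Their summed linear signal was 874 in recolonized colon IEL, 486 in colon IEL and 3337 in small intestinal IEL, against 6316 on the labelled lamina propria array, with 12 of 12 markers at or above the array median on each. The summed signal of the 10 immediate early genes was 277 on the recolonized colon array, 142 on the colon array and 392 on the small intestinal array, against 1643 on the labelled lamina propria array. The summed signal of the T cell markers was 2029, 1437 and 2061 on the 3 IEL arrays in that order, against 53.0 on the labelled lamina propria array. No pan-epithelial or T cell marker was at 0, the lowest being 1.87 for a T cell marker on the labelled lamina propria array. The array order was not particular to epithelial markers. The reference genes summed to 1673, 1265 and 2848 on the 3 IEL arrays, against 3337 on the labelled lamina propria array. Krt20 and Vil1 were higher in small intestinal IEL than on that array. Stromal and red cell markers had medians of 5.41 and 8.75 in colon IEL, against 2.49 and 3.57 on that array. The part of cell content in the differences of the immediate early genes was not tested.

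**Figure D3:**
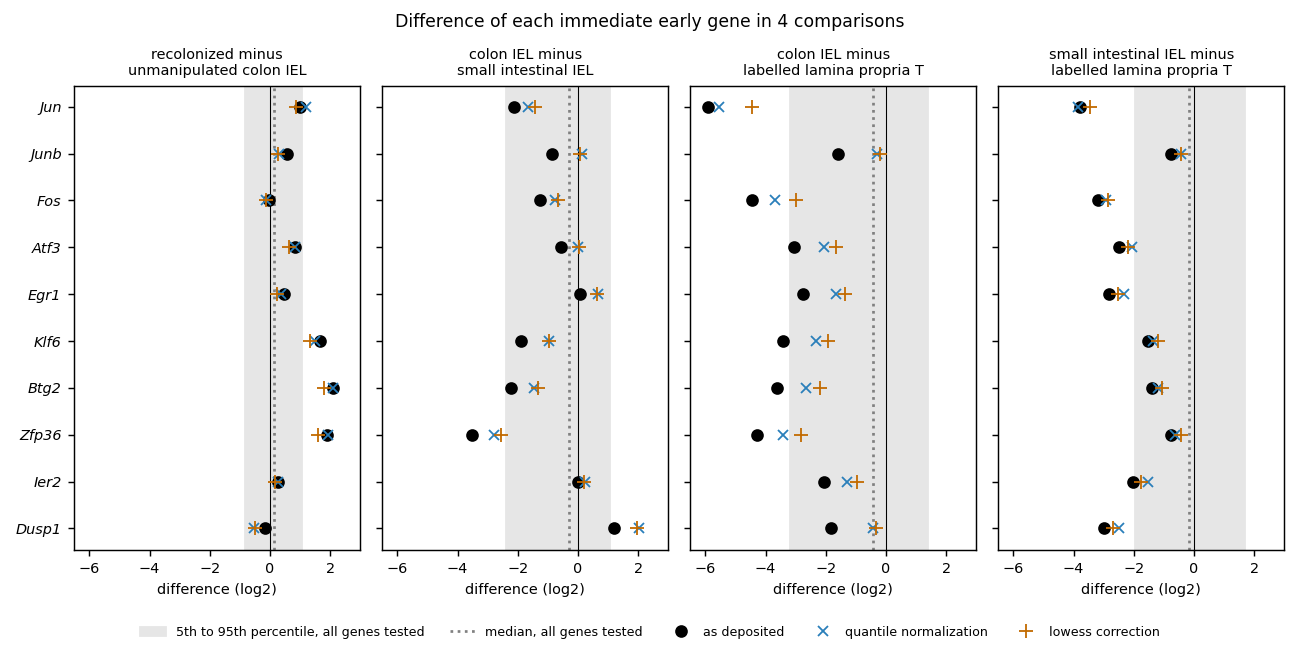
Log2 difference (horizontal axis) of each immediate early gene in 4 comparisons, as deposited (dots), after quantile normalization (crosses) and after lowess correction (plus signs), with the 5th to 95th percentile band and the median of all genes tested. Differences against the labelled lamina propria array are all below 0, and Btg2, Zfp36 and Klf6 lie to the right of the band for recolonized against unmanipulated colon IEL.

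Colon IEL were compared with small intestinal IEL for differences along the length of the gut, and here the members divided. In colon IEL 5 of 10 members were at least 2-fold lower, where 24.4% of 12551 genes tested were, and 1 of 10 was higher, where 5.98% of those genes were. The lower members were Zfp36 with −3.53, Btg2 with −2.22, Jun with −2.14, Klf6 with −1.88 and Fos with −1.25. Dusp1 was higher by 1.18, and 457 of the genes tested had a difference as high or higher. Ier2 and Egr1 differed by −0.01 and 0.07. The members' median was −1.05, against −0.30 for all genes tested, and it came to −0.38 after quantile normalization and −0.31 after lowess. Under those scalings 3 of 10 members remained at least 2-fold lower, namely Zfp36, Jun and Btg2, where 13.7% and 13.2% of all genes tested were. Dusp1 was then higher by 2.04 and 1.96. Junb, at −0.85 as deposited, and Atf3, at −0.56, turned to values between 0.02 and 0.13, and Ier2 turned positive under all 3 scalings.

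When recolonized colon IEL were set against small intestinal IEL, 3 of 10 members were at least 2-fold lower, where 17.9% of 12379 genes tested were, and 1 was higher, where 4.76% were. Zfp36, Fos and Jun were lower, with −1.64, −1.27 and −1.13, and Dusp1 was higher by 1.02. Klf6 and Btg2 differed by −0.22 and −0.12. The counts did not hold under the other scalings, with 0 lower and 2 higher after quantile normalization, 1 and 1 after lowess, and 2 and 1 after centring. Of all genes tested 10.5% were lower and 8.66% higher after quantile normalization, 11.6% and 7.00% after lowess, and 13.7% and 8.41% after centring. The members' median was −0.17 and changed sign to 0.53 after quantile normalization, 0.43 after lowess and 0.03 after centring. Zfp36 lower and Dusp1 higher in the colon held for both colon IEL arrays and under quantile normalization, centring and lowess, with Zfp36 between −3.53 and −0.86 and Dusp1 between 1.02 and 2.04. Markers of B cells and small intestinal enterocytes also differed in these pairs: their medians were 2.64 and 2.81 in recolonized colon IEL and 3.17 and 2.22 in colon IEL, against 6.24 and 9.51 in small intestinal IEL. Stromal markers had medians of 4.28 in recolonized colon IEL and 5.41 in colon IEL, against 2.99 in small intestinal IEL, and red cell markers 3.37 in recolonized colon IEL and 8.75 in colon IEL, against 3.86 in small intestinal IEL. Of the 12 pan-epithelial markers, 8 in recolonized and 10 in unmanipulated colon IEL had a level lower by 2-fold or more than in small intestinal IEL. Of all genes tested 17.9% and 24.4% had. The part of these in the members' differences was not tested.

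Recolonized colon IEL were compared with unmanipulated colon IEL to ask how antibiotics followed by the return of bacteria bear on these cells. No array held antibiotics alone, so the 2 steps cannot be told apart. In recolonized colon IEL 4 of 10 members were at least 2-fold higher, where 6.04% of 12443 genes tested were, and 0 of 10 were lower, where 3.06% were. Btg2 was 4.28-fold higher, a difference of 2.10 that 44 of all genes tested reached. Zfp36 was 3.70-fold higher, with a difference of 1.89 that 73 genes reached, and Klf6 was 3.15-fold higher, with 1.66 that 130 genes reached. Jun passed the threshold narrowly with 1.01 and was under it after centring (0.88) and lowess (0.86). Atf3, Junb, Egr1 and Ier2 were higher by 0.84, 0.58, 0.47 and 0.28, and Fos and Dusp1 had differences of −0.02 and −0.16. The median over the members was 0.71, against 0.13 for all genes tested, and it was 0.58 after quantile normalization and 0.44 after lowess. Under each of the 3 scalings Btg2, Zfp36 and Klf6 remained at least 2-fold higher, and no member changed sign. Of all genes tested 6.55% were at least 2-fold higher after quantile normalization, 4.08% after centring and 3.51% after lowess.

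Other lists differed between those 2 colon arrays as well. Pan-epithelial and colonocyte markers had medians of 5.44 and 6.68 on the recolonized array, against 4.40 and 3.38 on the unmanipulated array. Red cell markers (4 of 6 measured) had a median of 3.37 on the recolonized array, against 8.75 on the unmanipulated one. For goblet cells, 5 of 7 markers were at least 2-fold higher in recolonized colon IEL, where 6.04% of all genes tested were, and the median difference was 1.70. For B cells, 3 of 5 markers were at least 2-fold lower, where 3.06% of all genes tested were, and the median difference was −1.43. Stromal markers were mixed, 3 of 7 higher and 3 lower with a median difference of 0.38. T cell markers were at 6.68 in recolonized and 5.57 in unmanipulated colon IEL. The part of these in the differences of Btg2, Zfp36 and Klf6 was not tested.

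The stretch of 200 bases before the RefSeq start site (GRCm38.p6) was read for 8 members, all but Egr1 and Ier2. It is shown for Btg2 and Zfp36, which were higher on the recolonized array, and for Fos and Dusp1, which were not. Klf6 and Jun were also at least 2-fold higher there as deposited, and their windows are not shown. Letters matching known response elements can be compared between the windows shown. Capitals mark the motifs found.
Btg2, chr1:134079156-134079355, reverse strand: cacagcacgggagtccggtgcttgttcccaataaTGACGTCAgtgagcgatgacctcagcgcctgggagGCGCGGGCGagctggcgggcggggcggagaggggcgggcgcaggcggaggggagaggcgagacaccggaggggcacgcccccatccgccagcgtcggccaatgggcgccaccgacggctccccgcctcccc
Zfp36, chr7:28379229-28379428, reverse strand: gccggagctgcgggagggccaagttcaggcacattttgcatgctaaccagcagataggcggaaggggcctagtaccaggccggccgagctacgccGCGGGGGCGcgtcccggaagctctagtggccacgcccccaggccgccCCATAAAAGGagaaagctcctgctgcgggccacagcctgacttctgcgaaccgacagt
Fos, chr12:85473690-85473889, forward strand: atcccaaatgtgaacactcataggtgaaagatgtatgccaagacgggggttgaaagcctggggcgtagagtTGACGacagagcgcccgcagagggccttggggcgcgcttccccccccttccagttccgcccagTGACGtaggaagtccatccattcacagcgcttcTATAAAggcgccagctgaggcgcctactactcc
Dusp1, chr17:26508473-26508672, reverse strand: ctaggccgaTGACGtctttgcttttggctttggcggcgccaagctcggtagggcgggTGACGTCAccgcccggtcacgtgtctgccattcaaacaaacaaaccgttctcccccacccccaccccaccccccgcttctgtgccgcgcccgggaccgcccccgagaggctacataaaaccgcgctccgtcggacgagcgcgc

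Searched on both strands were the cyclic AMP response element TGACGTCA, its first letters TGACG (contained in the full element), the CArG box of serum response factor, the EGR site GCGNGGGCG, the AP-1 site TGANTCA and the TATA box TATAAA. The full cyclic AMP response element was in 2 of the 8 windows, those of Btg2 (166 to 159 bases before the start) and Dusp1 (143 to 136), and in 1.47% of the 32851 windows of all genes. TGACG was in 5 of 8, those of Btg2, Dusp1, Fos, Junb and Atf3, and in 15.7% of all windows. The CArG box was in the window of Zfp36 (58 to 49 bases before the start) and in 1.18% of all windows. The EGR site was in those of Btg2 and Zfp36 and in 4.28% of all, and TATAAA in that of Fos, 33 to 28 bases before the start, and in 9.96% of all. TGANTCA was in 0 of 8 and in 5.48% of all windows. A match is only a match of letters. The windows of Jun and Klf6, also at least 2-fold higher on the recolonized array as deposited, held none of these motifs. None of the motifs was thus shared by all the higher members.

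The wider set of immediate early genes did not follow the 10 members as a block. Members and lists were chosen with earlier results of these data known, so this contrast cannot be told apart from that choice. Of 46 further genes listed, 44 were measured, and 16 of these were highest on the labelled lamina propria array while 14 were lowest there, which is 36.4% and 31.8%, where 43.3% and 26.2% of the 13823 genes were. The 44 genes were not held to the level condition of the 13823. Their median level was 3.81 in recolonized colon IEL, 3.55 in colon IEL and 3.83 in small intestinal IEL, against 3.78 on the labelled lamina propria array. For colon IEL against that array, 12 of 42 genes tested were at least 2-fold lower and 4 higher, no larger shares than the 34.7% and 10.5% of all genes tested, with a median over the 44 of −0.33 that turned to 0.32 after quantile normalization, 0.33 after lowess and 0.11 after centring. Klf4, a differentiation factor of gut epithelium, had the largest difference, at 3.81 in colon IEL against 8.11 on the labelled lamina propria array. It was followed by the AP-1 subunit Fosb, at 2.50 in colon IEL against 5.81 on that array, the pseudokinase gene Trib1, at 2.37 in colon IEL against 5.30 there, and the AP-1 subunit Fosl2, at 4.18 in colon IEL against 7.07 there. These 4 kept their sign under the 3 scalings.

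Some further genes ran the other way, named here after their values were seen. Egr3, induced by the T cell receptor, had levels of 2.98 in recolonized colon IEL, 2.92 in colon IEL and 3.54 in small intestinal IEL, against 1.82 on the labelled lamina propria array. The orphan receptor Nr4a3 had 3.27, 2.75 and 2.88 on the 3 IEL arrays in that order, against 2.05 on the labelled lamina propria array. The MAP kinase phosphatase Dusp2 had 4.39, 4.24 and 4.08 on the IEL arrays, against 2.65 on that array. Klf2, a quiescence and trafficking factor of T cells, had 5.66, 5.25 and 4.16 on the IEL arrays, against 2.93 there. Nr4a1, the best known of the orphan receptors in T cells, did neither, with 3.69, 3.07 and 4.38 on the IEL arrays, against 3.63 there. Of the 16 T cell activation genes, which hold Egr2, Egr3 and Nr4a1 as well, 15 were lowest on the labelled lamina propria array, where 26.2% of the 13823 genes were. The 13823 genes had to reach the median on at least 1 array. The 16 were not held to that, and some of them lay below the median on every array. Their median difference over all 16 was 0.87 for colon IEL against that array, 0.86 after quantile normalization and 0.66 after lowess. Only 6 of the 16 reached the median of all genes on the labelled lamina propria array, against 12 in colon IEL, so counts over the genes that passed the level floor are not given. The early activation receptor Cd69 led with 4.94 in colon IEL against 2.06 on the labelled lamina propria array.

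In the recolonized comparison the further immediate early genes had 4 of 42 tested at least 2-fold higher and 0 lower, where 6.04% and 3.06% of all genes tested were, with a median over the 44 of 0.23. The 4 were Klf4 at 5.62 in recolonized against 3.81 in unmanipulated colon IEL, the growth regulator Myc at 5.44 in recolonized against 4.29 in unmanipulated colon IEL, the NF-kappa-B inhibitor Nfkbia at 5.38 in recolonized against 4.24 in unmanipulated, and the small Maf factor Maff at 3.78 in recolonized against 2.70 in unmanipulated. Under the 3 scalings Klf4 kept differences of 1.47 to 1.71, and the other 3 genes lay between 0.80 and 1.35. Of the T cell activation genes 0 of 13 tested were 2-fold apart in either direction, a count near the 6.04% and 3.06% of all genes tested. In colon against small intestinal IEL, 9 of 42 further genes were at least 2-fold lower and 1 higher, no larger shares than the 24.4% and 5.98% of all genes tested. Klf4 led with −2.50, followed by the ERK phosphatase Dusp6 with −1.91, Cited2 with −1.62 and Fosl2 with −1.56. The other probe set of Dusp6 was dim, at 1.57 in colon and 1.37 in small intestinal IEL.

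**Figure D4:**
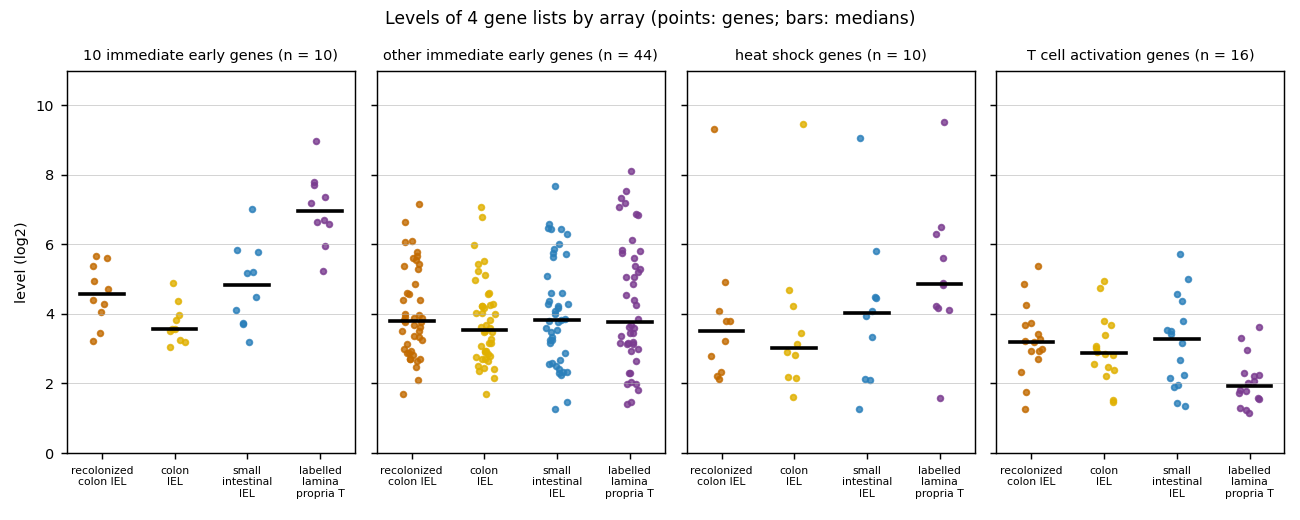
Log2 levels (vertical axis) of the genes of 4 lists on the 4 arrays, 1 point per gene, with a bar at each median. The 10 immediate early genes have medians of 4.57, 3.57 and 4.84 on the IEL arrays against 6.96 on the labelled lamina propria array, whereas the 44 further genes have medians of 3.55 to 3.83 throughout.

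Kinases and factors upstream of the immediate early genes (19 of 24 measured) had a median difference of −1.09 for colon IEL against the labelled lamina propria array, with 10 of 18 tested at least 2-fold lower and 1 higher, where 34.7% and 10.5% of all genes tested were, and a median of −0.08 after quantile normalization and −0.16 after lowess. Map2k1, which activates ERK, was at 4.11 in colon IEL against 7.05 on that array, whereas serum response factor itself (Srf), named after its values were seen, was at 4.05 in colon IEL against 4.81 there. Heat shock genes (10 of 12 measured) were highest on the labelled lamina propria array in 9 of 10 cases, where 43.3% of the 13823 genes were. The heat shock list was not held to the level condition of the 13823 genes. Hspb1, named after its values were seen, lay below the median on every array. On the labelled lamina propria array 9 of the 10 reached the median of all genes, against 7 in colon IEL. Counts over the heat shock genes that passed the level floor are therefore not given for that pair. The median difference over all 10 heat shock genes was −1.33 for colon IEL against the labelled lamina propria array. It shrank to −0.53 after quantile normalization and −0.35 after lowess. The stress-inducible chaperone gene Hspa1b had levels of 2.12 in recolonized colon IEL, 2.15 in colon IEL and 2.09 in small intestinal IEL, against 5.62 on that array, and Hspa1a had 2.20, 1.61 and 1.28 on the IEL arrays, against 4.22 there. Both had levels below the median of all genes on the 3 IEL arrays, and the part of this in the differences of the immediate early genes was not tested. In recolonized against unmanipulated colon IEL, 0 of 7 heat shock genes tested were 2-fold apart in either direction. Of all genes tested 6.04% were higher and 3.06% lower, so a count of 0 among 7 is near those shares.

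Likeness to the members was measured as the root mean square distance, over the 4 arrays, between a gene's levels centred on their own mean and the mean centred profile of the 10 members. That profile was −0.46 in recolonized colon IEL, −1.32 in colon IEL and −0.20 in small intestinal IEL, against 1.98 on the labelled lamina propria array. Among 13813 other genes the nearest were Rab25 with a distance of 0.07, Tc2n with 0.08, Hmgn5 with 0.08, Pon2 with 0.08, Hexa with 0.09, Erbb2 with 0.11, Krt18 with 0.11 and Tcf7l2 with 0.12. Rab25, an epithelial trafficking GTPase, had levels of 4.28, 3.57 and 4.72 on the recolonized colon, colon and small intestinal IEL arrays, against 6.79 on the labelled lamina propria array. Krt18, an epithelial keratin, had 5.07, 4.53 and 5.52 on the IEL arrays, against 7.67 on that array. Its other probe set had 2.88, 2.95 and 2.03 on the IEL arrays, against 4.37 there. Pon2 had 4.50, 3.78 and 4.92 on the IEL arrays, against 6.91 on the labelled lamina propria array, and Hexa 4.58, 3.73 and 4.89, against 6.83. Hmgn5 was dim, at 1.91 in recolonized colon IEL and 1.26 in colon IEL, below the median of all genes on both. The members themselves were farther from their mean profile, from 0.22 for Atf3 to 0.86 for Zfp36 and 1.04 for Jun. The other genes were picked as the nearest of 13813, so their smaller distances follow from that choice.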

How the data were processed

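RNA of 4 samples was hybridised to 1 array each. The deposited values are log2 levels per probe set that the authors made in Affymetrix Expression Console, as the submitters' processing notes record. How probe sets were summarized and normalized is not given in the sources used here. Array medians differed (1.93 to 2.17 over probe sets) and no centring was seen, so only the same probe set was compared between arrays. Of 41345 probe sets, 23521 listed 1 gene symbol, 1814 several and 16010 none in the platform table used here. Several symbols named no gene. Gene IDs of 23328 matched RefSeq (GRCm38.p6). A gene's probe set was the one with the highest mean over the arrays.

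Differences are of log2 levels. A gene was tested when it reached the 50th percentile on the brighter array of a pair, and counted at 2-fold or more. This is a count, not a statistical test. The number of arrays limits the precision. Alternatives were level floors at the 25th and 75th percentile or none, thresholds of 1.5-fold and 3-fold, the mean of probe sets, quantile normalization over all probe sets, centring on the median of the genes tested, lowess (span 0.3) and the recolonized in place of the colon IEL array. The counting was tested on simulated levels. Python 3.11.15, pandas 2.3.3 and statsmodels 0.14.6 were used.

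Members and lists were chosen with earlier results of these data known. Named are all members, up to 4 genes with the largest difference per further list and comparison, the 8 most alike genes, fixed markers (Cd3e and Epcam among them), and others marked as named after their values were seen. Promoter windows are from RefSeq, and the motifs were chosen in the same way as the lists.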

Additional observations from a re-analysis of the deposited data

How the results depend on the processing

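No paired analysis was possible because each group was 1 array. A median that moved by less than the SD over ribosomal protein genes in its comparison was taken as unmoved, and a count within 1.5 times as unmoved. For colon IEL against the labelled lamina propria array, the median difference of −3.24 moved to −2.19 under quantile normalization, −1.81 under lowess and −2.10 with the recolonized array. For small intestinal IEL against that array, the median of −2.27 moved to −1.80 under quantile normalization. For colon against small intestinal IEL, the median of −1.05 moved to −0.38 under quantile normalization, −0.31 under lowess and −0.17 with the recolonized array. The count of lower members moved from 5 to 3 under each of these 3, where 13.7%, 13.2% and 17.9% of all genes tested were lower. The 1 higher member, Dusp1, gave a count of 0 at 3-fold, where 1.30% of all genes tested were higher. For recolonized against unmanipulated colon IEL no median or count moved by these rules under any alternative run, with 3 to 5 members higher and medians between 0.44 and 0.71. Of all genes tested 1.17% were higher at 3-fold and 19.3% at 1.5-fold. The SD for that pair was 0.59, close to the median of 0.71 itself. The rule could therefore hardly have found a move of that median, and the fall to 0.44 passed as unmoved. The cause of the moves in the other comparisons was not tested. Level floors changed none of the members' counts, and the mean of probe sets changed none since each member has 1 probe set. The shares of all genes did change. At a floor of the 75th percentile, 54.9% of genes tested were lower in colon IEL than on the labelled lamina propria array. The share was 24.4% for small intestinal IEL against that array and 41.8% for colon against small intestinal IEL. In recolonized against unmanipulated colon IEL 10.5% were then higher. In the pairs without the labelled lamina propria array, 9 members were then tested. Over all genes tested, higher genes made up 23.2% of those 2-fold apart in colon IEL against the labelled lamina propria array as deposited, against 42.7% with quantile normalization, 47.6% with centring and 44.2% with lowess. The same share was 19.7%, 45.4%, 42.1% and 39.7% when colon was set against small intestinal IEL, 35.8%, 45.1%, 46.3% and 47.5% for small intestinal IEL against the labelled lamina propria array, and 66.3%, 51.5%, 48.2% and 46.6% for recolonized against unmanipulated colon IEL.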
